A study of Mus musculus with 30 samples.

Results

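The glycolytic enzymes were described across the RNA-seq and SLAM-seq values of mouse spermatogonial stem cell (SSC) lines. Their members were chosen by name, as 10 genes that encode enzymes of the pathway from glucose to lactate: Hk2, Gpi1, Pfkl, Aldoa, Tpi1, Gapdh, Pgk1, Pgam1, Pkm and Ldha. An RNA level was listed for 9 of them among 13904 genes, and an RNA half-life was listed for 4 of them among 5806 transcripts. Gpi1, Aldoa and Pkm had both, and Pgam1 had a half-life but no RNA level. In GRCm38, Gpi1, Aldoa and Ldha lie on chromosome 7, Hk2, Tpi1 and Gapdh on chromosome 6, Pfkl on chromosome 10, Pkm on chromosome 9, Pgam1 on chromosome 19 and Pgk1 on chromosome X.

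Glycolysis is the cytoplasmic pathway that splits glucose into pyruvate, and lactate dehydrogenase turns pyruvate into lactate. The pathway opens with steps that spend ATP and ends with steps that return it, and hexokinase, phosphofructokinase and pyruvate kinase catalyze its irreversible steps. Cultured SSCs are known to draw much of their energy from glycolysis, and most genes of the pathway are textbook targets of the hypoxia-inducible factor HIF-1.

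SSC lines were derived from the testes of week-old male mice and were grown on mouse embryonic fibroblast feeders in medium with GDNF, FGF2, EGF and LIF. All lines used here carried the Nanos2 TAG allele, in which a tag of V5, c-myc, a protease site, histidines and EGFP precedes the RNA-binding protein NANOS2. Line 4 was Nanos2 TAG/+ and line 5 was Nanos2 TAG/TAG, so each genotype was represented by 1 line, and neither line was an untagged control. RNA-seq was performed on 1 library of ribosomal RNA-depleted total RNA per line, which the labels describe as extracted after feeder depletion with QIAzol for Nanos2 TAG/+ and with Trizol for Nanos2 TAG/TAG. SLAM-seq, in which labeled RNA is followed through a chase, was performed on 12 libraries per line over 6 chase times from 0 to 1440 min, and gave 1 half-life per transcript and line.

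The columns of the RNA level table carry short codes that no label spells out, and every direction between the libraries below rests on reading GG as Nanos2 TAG/TAG and Gp as Nanos2 TAG/+. The study's methods describe RNA from sorted SSCs extracted with QIAzol, so that the sources differ on how feeder cells were removed and on the reagent. By the labels, genotype, line and extraction reagent differ together between the RNA-seq libraries and cannot be told apart. With 1 library per line there is no replicate error, so that no test was made, and a level was called different when the FPKM (fragments per kilobase, scaled to library depth) differed by at least 1.5-fold on the scale of log2(FPKM + 0.1). The FPKM values corresponded to whole reads when scaled by 10908790 for Nanos2 TAG/+ and by 11738620 for Nanos2 TAG/TAG, and the reads so recovered summed to 10977831 and 11656606. The former are scaling values and not the read totals of the libraries, which are not given here. The intervals given below are 95% intervals from these reads and cover counting error only, not the spread between cultures. They also leave out the error in assigning reads shared by a gene and its copies. The summed FPKM of 9 spermatogonial markers was 673 in Nanos2 TAG/+ and 926 in Nanos2 TAG/TAG, and that of 8 fibroblast markers was 322 and 404, so that RNA with both sets of markers was present in both libraries. Most of the fibroblast sum came from a single gene, Fn1, with 254 and 280.

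Aldoa, Ldha, Pgk1 and Pfkl were at least 1.5-fold lower in Nanos2 TAG/TAG than in Nanos2 TAG/+, Hk2 was higher, and Gapdh, Pkm, Gpi1 and Tpi1 were within 1.5-fold. Thus 4 of 9 members were called lower, against 19.4% of all 13904 genes, and 1 of 9 was called higher, against 22.8% of all genes. The median log2 ratio was -0.58 over the 9 members and 0.01 over all genes, and 8 of the 9 members had the lower value in Nanos2 TAG/TAG, although by a negligible amount for Gapdh. The reads of the 9 members together made up 1.01% of the recovered reads of Nanos2 TAG/+ and 0.766% of those of Nanos2 TAG/TAG.

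The promoters of the members called different were examined because these genes share a known regulator, and they are shown to let the letters be read beside the values. Each is the 250 bases before a RefSeq gene start in GRCm38.p6, written on the sense strand. For Aldoa and Ldha, which have several annotated starts, only the window with the lowest coordinate is shown. Capitals mark ACGTG or GCGTG, the core letters that HIF-1 is known to recognize, on either strand, so that CACGT and CACGC also appear in capitals and the palindrome CACGTG counts once per strand. Pfkl is at chr10:78009808-78010057 on the minus strand, Aldoa at chr7:126799179-126799428 on the minus strand, Pgk1 at chrX:106186850-106187099 on the plus strand, Ldha at chr7:46845554-46845803 on the plus strand and Hk2 at chr6:82774455-82774704 on the minus strand.
Pfkl: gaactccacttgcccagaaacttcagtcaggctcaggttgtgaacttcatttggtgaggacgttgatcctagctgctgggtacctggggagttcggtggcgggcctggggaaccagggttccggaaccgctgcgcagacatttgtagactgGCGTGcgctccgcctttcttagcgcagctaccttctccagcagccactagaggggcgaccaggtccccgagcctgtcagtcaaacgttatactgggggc
Aldoa: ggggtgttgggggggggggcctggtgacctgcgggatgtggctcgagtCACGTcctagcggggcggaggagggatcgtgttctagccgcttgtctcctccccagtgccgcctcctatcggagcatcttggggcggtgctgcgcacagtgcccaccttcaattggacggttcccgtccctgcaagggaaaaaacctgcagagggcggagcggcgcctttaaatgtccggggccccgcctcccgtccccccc
Pgk1: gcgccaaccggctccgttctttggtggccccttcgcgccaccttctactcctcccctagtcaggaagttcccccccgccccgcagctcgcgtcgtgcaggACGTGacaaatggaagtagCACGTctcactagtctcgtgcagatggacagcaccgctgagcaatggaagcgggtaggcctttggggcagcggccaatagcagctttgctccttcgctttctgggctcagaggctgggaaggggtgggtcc
Ldha: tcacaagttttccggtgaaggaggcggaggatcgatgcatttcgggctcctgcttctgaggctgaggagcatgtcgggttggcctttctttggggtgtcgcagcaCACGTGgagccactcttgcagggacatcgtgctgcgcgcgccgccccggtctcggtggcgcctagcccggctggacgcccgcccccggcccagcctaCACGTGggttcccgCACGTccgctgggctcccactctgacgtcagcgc
Hk2: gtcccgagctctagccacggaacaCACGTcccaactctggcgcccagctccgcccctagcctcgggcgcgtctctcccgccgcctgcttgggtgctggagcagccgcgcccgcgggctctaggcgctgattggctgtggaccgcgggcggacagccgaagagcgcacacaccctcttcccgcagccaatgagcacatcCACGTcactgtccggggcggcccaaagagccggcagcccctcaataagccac

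The window shown for Ldha held 5 matches, all of them ACGTG, that of Pgk1 held 2, and those of Aldoa and Pfkl held 1 each. The other Ldha window, at chr7:46846832-46847081, held 1 match, which was GCGTG. Of the Aldoa windows not shown, 1 overlaps the window shown and holds the same site, and that at chr7:126800448-126800697 holds no match. Hk2, whose level was higher, also held 2. Over the 14 annotated windows of the 10 enzymes, 10 had at least 1 match, and 8 of the 10 enzymes had such a window, Gpi1 and Tpi1 being the exceptions. The 10 windows with a match count the shared Aldoa site in 2 of them. Of all 32851 windows of the same length in the RefSeq promoter table, 38.6% held a match. The letters searched contain CG, and those windows were not matched in base composition to the enzymes' windows, whose GC content ran from 50.4% to 69.6%. The shares are therefore not a like comparison. Gapdh and Pkm, which were within 1.5-fold, each had a window with a match as well. Among members with a level, a match thus did not separate those called lower from the others. Pgam1 had matches too, but no level was listed for it. Aldoa has 3 annotated starts, and Pkm and Ldha have several too, which gives these genes more windows in which to match. A match describes letters only, and binding was not measured here.

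**Figure D1:**
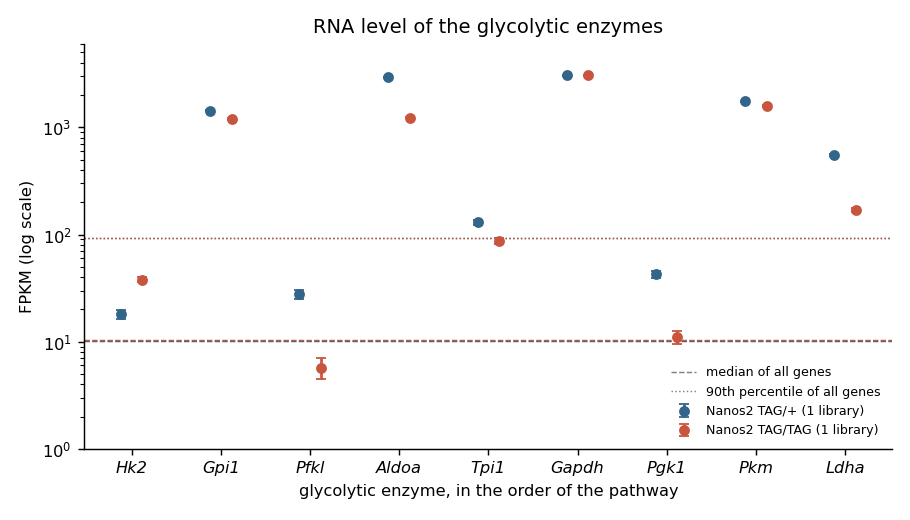
FPKM of the 9 glycolytic enzymes with an RNA level, on a log axis and in the order of the pathway, with blue points for Nanos2 TAG/+ and red points for Nanos2 TAG/TAG (1 library each). Bars are exact Poisson 95% intervals from the recovered reads, and the dashed and dotted lines mark the median and the 90th percentile of all genes in each library; the points of Gapdh lie at 3054 and 3048, whereas those of Pfkl lie at 27.7 and 5.69.

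In the first steps of the pathway, the gene of the first enzyme and that of the committed step went in opposite directions. Hk2, a hexokinase that traps glucose in the cell as glucose 6-phosphate, had an FPKM of 18 (95% interval 16.4 to 19.7) in Nanos2 TAG/+ and of 37.9 (35.7 to 40.3) in Nanos2 TAG/TAG. It was the only member called higher, by 2.11-fold with an interval of 1.89 to 2.36.

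Pfkl, the liver-type subunit of phosphofructokinase, the committed step of glycolysis, had an FPKM of 27.7 (24.9 to 30.6) in Nanos2 TAG/+ and of 5.69 (4.52 to 7.07) in Nanos2 TAG/TAG. These values rest on 366 and 81 reads. The 4.86-fold lower level (interval 3.81 to 6.26) was the largest ratio among the members, and in Nanos2 TAG/TAG Pfkl was below the median of all genes, which was 10.5.

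Gpi1, which converts glucose 6-phosphate into fructose 6-phosphate between these steps, was far more abundant than either. Its FPKM was 1428 (1407 to 1449) in Nanos2 TAG/+ and 1193 (1175 to 1211) in Nanos2 TAG/TAG. The difference of 1.20-fold exceeded the counting intervals but was within the 1.5-fold limit.

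Aldoa, the aldolase that cleaves fructose 1,6-bisphosphate, was the second most abundant member in Nanos2 TAG/+, where its FPKM was 2934 (2902 to 2967). In Nanos2 TAG/TAG its FPKM was 1235 (1215 to 1256), which is 2.38-fold lower (2.33 to 2.42). Its FPKM was thus close to that of Gapdh in the former and to that of Gpi1 in the latter. Aldoa is annotated as 2 neighboring gene records, and its FPKM gave whole reads with the transcripts of both, so that its value covers both. Tpi1, which interconverts the products of the aldolase, had an FPKM of 130.3 (123.3 to 137.6) in Nanos2 TAG/+ and of 87.2 (81.7 to 93.0) in Nanos2 TAG/TAG. Its ratio of 1.49-fold lay just inside the limit, and its interval of 1.37 to 1.63 reached past it, so that counting error alone leaves its call undecided.

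In the later steps of the pathway, Gapdh and Pkm had nearly equal levels between the libraries, although that of Gapdh depended on read assignment, as given below. Pgk1 and Ldha, which were less abundant, were lower in Nanos2 TAG/TAG. Gapdh, which oxidizes glyceraldehyde 3-phosphate, was the most abundant member in each library, with an FPKM of 3054 (3020 to 3088) in Nanos2 TAG/+ and of 3048 (3016 to 3081) in Nanos2 TAG/TAG. The values overlap in their counting intervals. Pkm, whose product makes pyruvate and ATP from phosphoenolpyruvate, had an FPKM of 1743 (1720 to 1767) in Nanos2 TAG/+ and of 1578 (1556 to 1600) in Nanos2 TAG/TAG, a 1.10-fold difference.

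Pgk1, the enzyme of the first ATP-forming step, had an FPKM of 42.5 (39.4 to 45.9) in Nanos2 TAG/+ and of 11 (9.48 to 12.7) in Nanos2 TAG/TAG, from 668 and 186 reads. It was 3.86-fold lower (3.28 to 4.57). Gapdh, which acts just before it, had the highest FPKM of all members in both libraries. Most of the Pgk1 transcript also occurs elsewhere in the genome, as given below, so its level depends on how reads were assigned. Pgam1, the phosphoglycerate mutase that acts just after Pgk1, was not listed with an FPKM, and its level is not given here.

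Ldha, the lactate dehydrogenase subunit that favors the conversion of pyruvate to lactate, had an FPKM of 553 (539 to 567) in Nanos2 TAG/+ and of 169 (162 to 177) in Nanos2 TAG/TAG. It was 3.26-fold lower (3.10 to 3.44), and it remained among the most abundant genes in both libraries, at rank 167 and rank 662.

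**Figure D2:**
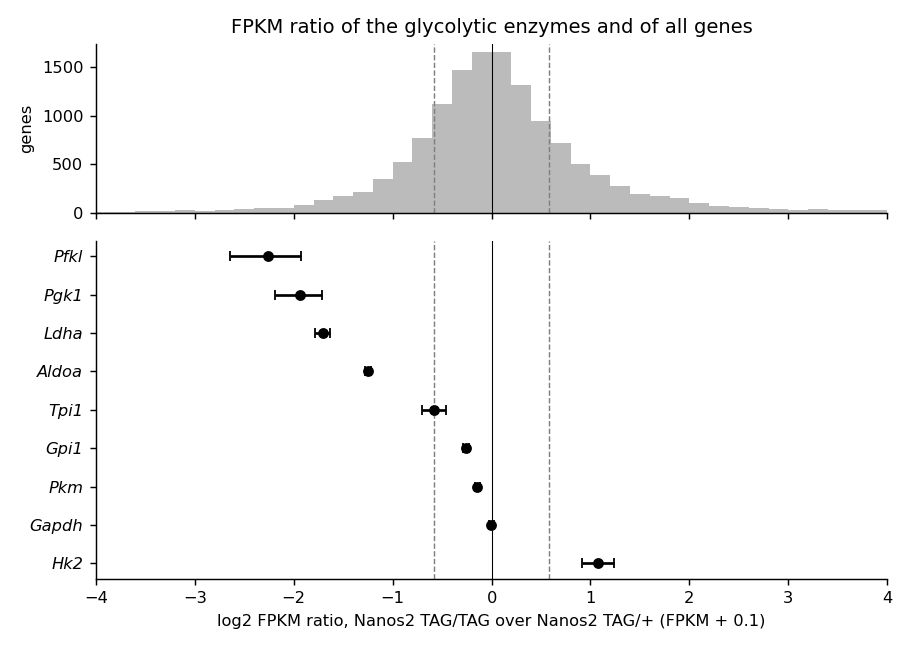
Upper panel, number of genes by log2 FPKM ratio of Nanos2 TAG/TAG over Nanos2 TAG/+, for all 13904 genes (the few beyond 4 on either side are not drawn). Lower panel, the ratio of each of the 9 members (points) with its 95% counting interval (bars); dashed lines mark 1.5-fold, which Pfkl, Pgk1, Ldha and Aldoa pass on the left and Hk2 passes on the right, while Tpi1 sits on the line.

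The members were not alike in abundance. The highest and the lowest of them differed 169.9-fold in Nanos2 TAG/+ and 536-fold in Nanos2 TAG/TAG. Gapdh, Aldoa, Pkm and Gpi1 contributed 92.2% of the summed FPKM of the 9 members in Nanos2 TAG/+ and 95.8% in Nanos2 TAG/TAG. By FPKM, which is scaled by length, the order in Nanos2 TAG/+ was Gapdh, Aldoa, Pkm, Gpi1, Ldha, Tpi1, Pgk1, Pfkl and Hk2. In Nanos2 TAG/TAG it was Gapdh, Pkm, Aldoa, Gpi1, Ldha, Tpi1, Hk2, Pgk1 and Pfkl. No neighbors in either order had overlapping counting intervals, although Aldoa and Gpi1 in Nanos2 TAG/TAG were separated by a narrow margin. These intervals do not cover the choice of length, which is the mean over all annotated transcripts of a symbol. It was 1175 bases for Gpi1 and 999 for Aldoa, while the coding transcripts chosen to represent them have 2884 and 1511. Orders, fold ranges and shares between genes thus depend on this length, whereas ratios between the libraries do not. Gapdh, Aldoa, Pkm, Gpi1 and Ldha were in the top 10% of genes in both libraries, which is 5 of 9 members against 8.58% of all genes. Tpi1 was in the top 10% in Nanos2 TAG/+ alone.

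Several enzymes have processed pseudogenes, and the reads of 50 bp can then be shared between a gene and its copies. Stretches of 50 bases, taken every 10 bases of 1 spliced transcript per gene, were searched in the genome. For Hk2 all of them, for Pfkl 99.5% and for Aldoa 85.0% were found nowhere else, whereas this held for 6.50% of those of Gapdh, 7.30% of those of Pgk1 and 5.78% of those of Pgam1. The shares for Tpi1, Gpi1, Ldha and Pkm were 76.3%, 75%, 66.9% and 59.4%.

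For Gapdh many reads were assigned to copies. It had 59 annotated pseudogene copies with an FPKM, to which 13447 reads were assigned in Nanos2 TAG/+ and 5406 in Nanos2 TAG/TAG, which is 29.9% and 13.8% of the reads of the gene and its copies together. A single copy, Gm13394, accounted for 8310 of these reads in Nanos2 TAG/+ and for 53 in Nanos2 TAG/TAG. With the copies included, Gapdh was 1.23-fold lower in Nanos2 TAG/TAG, so that its equal level between the libraries depended on how reads were assigned. Gm13394 and the copies named next were chosen after their values were seen.

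Gpi1 showed the same kind of split with its pseudogene Gm1840, which was assigned 3661 reads in Nanos2 TAG/+ and 240 in Nanos2 TAG/TAG. With this copy included, Gpi1 was 1.42-fold lower in Nanos2 TAG/TAG and still within the limit. For Pgk1 the copy Gm5537 was assigned 0 reads and 33 reads, and with them the gene was 3.28-fold lower. Aldoa, Ldha, Pfkl, Tpi1 and Hk2 had no pseudogene copy with an FPKM. The members called lower or higher were the same 5 genes with and without the copies that had an FPKM. Other copies could not be added, among them Pgk1-rs7, which shares 67.4% of the stretches of Pgk1 and was not listed with an FPKM.

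**Figure D3:**
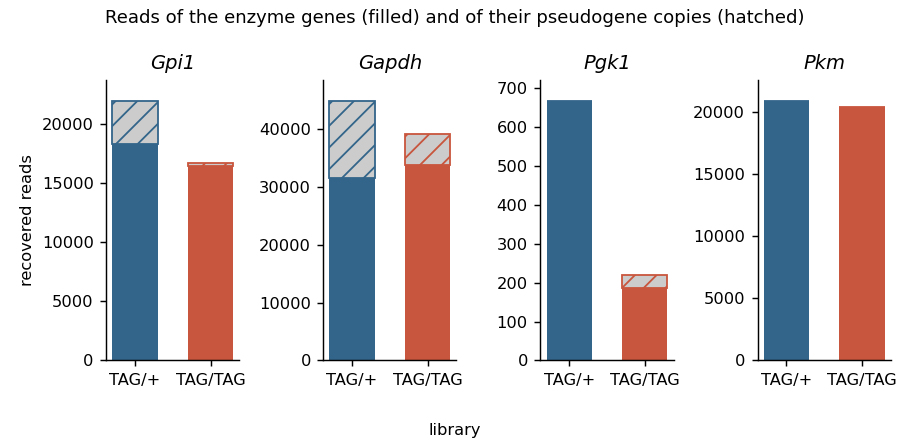
Recovered reads assigned to Gpi1, Gapdh, Pgk1 and Pkm (filled bars) and, stacked on them, to their annotated pseudogene copies (hatched) in the Nanos2 TAG/+ and the Nanos2 TAG/TAG library; each panel has its own axis from 0. The copies of Gapdh hold 13447 and 5406 reads and that of Gpi1 holds 3661 and 240, while those of Pkm hold 15 and 60.

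Other isozymes of the same steps showed which form of an enzyme the lines expressed. Of the 16 isozyme genes listed, 11 had an FPKM, of which 3 were lower in Nanos2 TAG/TAG, 1 was higher and 7 were within 1.5-fold. These 27.3% and 9.09% stand beside 19.4% lower and 22.8% higher over all genes, so the share called lower was near that of all genes. Hk1, the widely expressed hexokinase, had an FPKM of 67.4 and 81.6, so that Hk2 made up 20.3% of the hexokinase FPKM in Nanos2 TAG/+ and 31.2% in Nanos2 TAG/TAG. Pfkp, the platelet-type phosphofructokinase, was lower as Pfkl was, with an FPKM of 29.5 in Nanos2 TAG/+ and 11.4 in Nanos2 TAG/TAG. The summed FPKM of Pfkl and Pfkp was thus 57.2 and 17.1. Eno1, the enolase that acts between Pgam1 and Pkm and is no member here, was lower as well, with an FPKM of 1249 and 710. Of the 50-base stretches of Eno1, 27.8% were found nowhere else, so its value too depends on read assignment, and it was not recomputed with its copies.

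Ldhb, the lactate dehydrogenase subunit that favors the conversion of lactate to pyruvate, was called higher in Nanos2 TAG/TAG, in contrast to Ldha. Its FPKM was 1.73 in Nanos2 TAG/+, from 16 reads, and 21.5 in Nanos2 TAG/TAG, from 214 reads, a ratio of 12.4-fold with an interval of 7.48 to 22.1. Ldha still made up 99.7% and 88.7% of the FPKM of both subunits. Ldhd, a lactate dehydrogenase of D-lactate, was lower, with 2.39 and 0.261 from 85 and 10 reads. It acts on D-lactate and so is no isozyme of the step of Ldha, although the counts of the list above include it. Aldoc, a second aldolase, had 51.7 and 57.9 and was within the limit, as was Adpgk, an ADP-dependent glucokinase, with 17.1 and 12.8.

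Of 7 isozymes that male germ cells are known to use from meiosis onward, 2 had an FPKM, and these were low. Gapdhs, the sperm form of Gapdh, had an FPKM of 1.26 in Nanos2 TAG/+ and 0.876 in Nanos2 TAG/TAG, from 16 and 12 reads. Eno4 had 4.76 and 2.85 from 107 and 69 reads, and was called lower with the pseudocount of 0.1 but not with one of 1. Pgk2, Ldhc, Pgam2, Aldoart1 and Aldoart2 were not listed with an FPKM, which does not show that they were low, and none of the 7 genes had a half-life.

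Half-lives were listed for Gpi1, Aldoa, Pgam1 and Pkm, and all 4 were long. Each lay above the median of all transcripts in both lines, 224 min in Nanos2 TAG/+ and 226 min in Nanos2 TAG/TAG, against 39.8% of all 5806 transcripts. Abundant transcripts had longer half-lives, and the medians of the 953 transcripts in the top 10% of FPKM were 302 and 314 min. The 4 members were also above these medians.

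The half-life of Gpi1 was 570 min in Nanos2 TAG/+ and 511 min in Nanos2 TAG/TAG, at the 97 and 93.4 percentile of all transcripts. That of Aldoa was 511 and 490 min, at the 95.6 and 92.4 percentile. These were the longest among the members in both lines. Pkm had 389.8 and 382 min, and Pgam1 had 333 and 365 min, at the 84.0 and 84.3 percentile. The order of the 4 was the same in both lines, but the half-lives were deposited without an error, so it is not known whether neighbors such as Pkm and Pgam1 in Nanos2 TAG/TAG differ beyond it.

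Between the lines, the half-lives of the 4 members differed little. The difference of Nanos2 TAG/TAG from Nanos2 TAG/+ was -58.4 min for Gpi1, -20.5 min for Aldoa, -8.05 min for Pkm and 32.2 min for Pgam1. None was at least 1.5-fold apart, against 20.7% of all transcripts. Aldoa is the member whose level and half-life can be set side by side with a called difference. Its FPKM was 2.38-fold lower in Nanos2 TAG/TAG, whereas its half-life decreased by 4.10% of the mean of both lines. For Pfkl, Pgk1, Ldha and Hk2, the other members called different, no half-life was listed. SLAM-seq reads were taken from the 3′ end of transcripts, and the 50-base stretches of the 3′ UTR that occur nowhere else in the genome were 92.9% for Aldoa, 83.7% for Gpi1, 64.0% for Pkm and 2.38% for Pgam1. The half-life of Pgam1 is therefore uncertain to the extent that its reads were shared with copies.

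**Figure D4:**
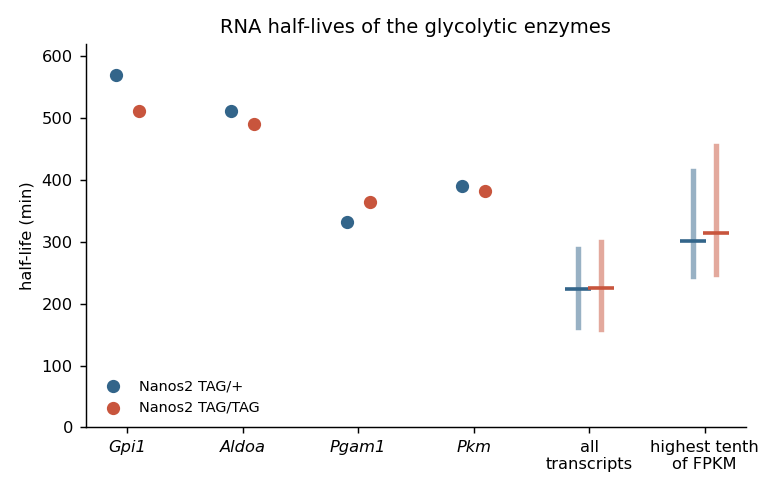
Half-lives in minutes of the 4 members with one, in Nanos2 TAG/+ (blue points) and Nanos2 TAG/TAG (red points), 1 deposited value each with no error. On the right, thick lines run from the first to the third quartile and bars mark the median of all 5806 transcripts and of the 953 transcripts in the top 10% of FPKM; all member points lie above both medians.

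A short motif that the study names for NANOS2 was searched in the 3′ UTRs. On the sense strand, 2 of the 10 members carried it. The spellings searched were AUGAAAU with its variant AUGAAUU, and also AUUAAAU together with AUUAAUU. The members with a match were Pgk1, which was lower in Nanos2 TAG/TAG, and Hk2, which was higher, and the sites are shown because these genes differ in direction. The sites are read from GENCODE M21 transcripts on GRCm38, with the motif in capitals. That of Pgk1 is at chrX:106203618-106203646 on the plus strand, and that of Hk2 at chr6:82725795-82725823 on the minus strand.
Pgk1 site: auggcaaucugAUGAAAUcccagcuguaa
Hk2 site: cccuucaaaauAUUAAAUugaccaccaau

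Such a match is common in long 3′ UTRs. Of the 3′ UTRs close in length to that of Pgk1, which is 420 bases long, 18.4% held a match, and of those like that of Hk2, which is 2285 bases long, 58.3% did. In all, 38.7% of 12453 3′ UTRs held a match. The 3′ UTRs of the other 8 members had no match to these letters.

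Glucose and lactate pass the cell membrane through transporters, and their genes went both ways. Of 8 with an FPKM, 3 were lower in Nanos2 TAG/TAG, 3 were higher and 2 were within 1.5-fold, that is 37.5% each way against 19.4% lower and 22.8% higher over all genes. The lower genes were Slc2a1, the basal glucose transporter, with an FPKM of 132.1 and 63.8, Slc16a3, a lactate exporter, with 36.4 and 11.8, and Slc16a1, a monocarboxylate transporter, with 29.6 and 18.8. The glucose transporter Slc2a3 had 48.8 and 50.1, and Bsg, the chaperone of the monocarboxylate transporters, had 309.7 and 225. The higher genes were less abundant: Slc2a8 had 10.2 and 16.1, Slc2a6 had 1.14 and 2.94, and Slc2a4 had 0.205 and 1.72. The half-life of Slc16a3 was 177 min in Nanos2 TAG/+ and 477 min in Nanos2 TAG/TAG, and that of Slc2a1 was 201 and 284 min, while Slc2a8 had 106 and 314 min and Slc2a3 had 200.3 and 265 min. All 4 transporters with a half-life thus had the longer one in Nanos2 TAG/TAG, at least 1.5-fold for Slc16a3 and Slc2a8, whereas their levels were lower, higher or within the limit. Over all 5806 transcripts, 583 were at least 1.5-fold longer in Nanos2 TAG/TAG, and the median log2 half-life ratio was 0.04. Each half-life is a single fitted value without an error.

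Fructose 2,6-bisphosphate is the main activator of phosphofructokinase, and its level is set by the PFKFB enzymes. Among 5 genes of this group 2 were lower in Nanos2 TAG/TAG and none was higher, against 19.4% and 22.8% of all genes. Pfkfb3, the isoform that favors its synthesis, had an FPKM of 27.7 and 10.5. Tigar, a phosphatase that lowers it, had 27.7 and 16.8. Pfkfb1, Pfkfb2 and Pfkfb4 were within 1.5-fold.

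HIF-1 subunits, their regulators and hypoxia-response genes outside glycolysis were described as a further list, chosen like all lists with earlier results of these data in view. Of 16 genes with an FPKM, 7 were lower in Nanos2 TAG/TAG, 2 were higher and 7 were within 1.5-fold, that is 43.8% lower and 12.5% higher against 19.4% and 22.8% of all genes, with a median log2 ratio of -0.48 against 0.01 over all genes. The lower genes included Egln1 and Egln3, the prolyl hydroxylases that mark HIF-1 for decay, with an FPKM of 19.6 and 6.61 and of 12.7 and 5.22. The others were Bnip3, a mitophagy receptor (94.7 and 31.9), Vegfa, an angiogenic growth factor (21.4 and 9.90), P4ha1, a collagen prolyl hydroxylase (23.9 and 7.19), Ddit4, an inhibitor of mTOR signaling (54.3 and 18.1), and Ankrd37 (18 and 7.39). Of the 50-base stretches of Bnip3, 37.4% were found nowhere else, so its value depends on read assignment, and it was not recomputed with its copies. Arnt, the constitutive subunit of HIF-1, was higher, with 40.03 and 65.5, as was Adm, with 1.56 and 9.94 from 15 and 103 reads. The genes within the limit were Ndrg1 (72.5 and 90.2), P4ha2 (12.9 and 12.4), Higd1a (15.3 and 11.7), Kdm3a (160.1 and 122), Vhl, which targets HIF-1 for decay (27.6 and 20.3), the mitophagy receptor Bnip3l (155.6 and 108.9) and Hif1a itself (31.5 and 25.9). Of 9 half-lives in this list, 1 was at least 1.5-fold shorter in Nanos2 TAG/TAG, that of Hif1a (234 and 131 min), and 1 was at least 1.5-fold longer, that of Vhl (148 and 232 min). Over all 5806 transcripts, 621 were at least 1.5-fold shorter and 583 at least 1.5-fold longer, together 20.7%.

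**Figure D5:**
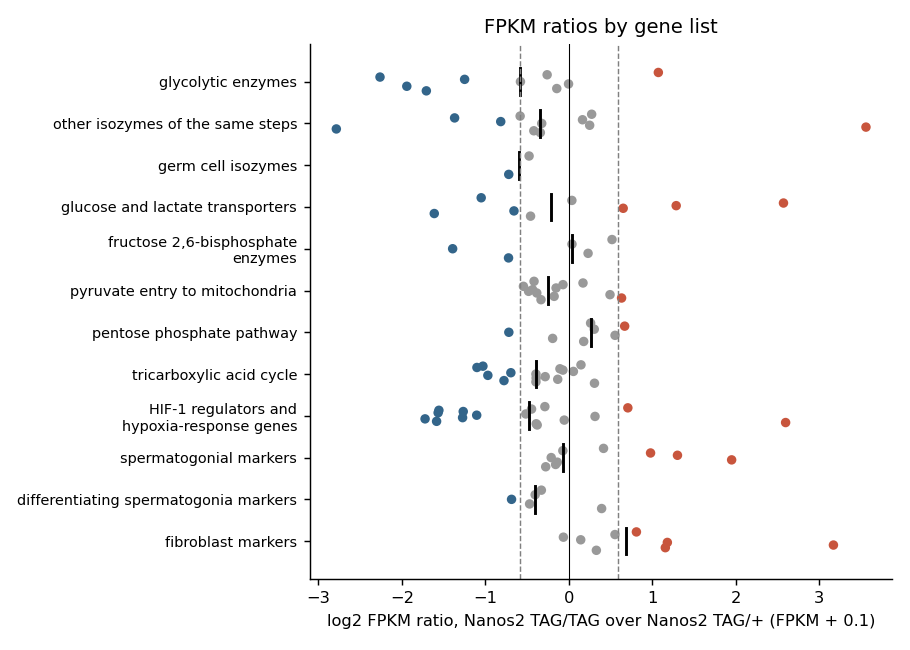
Log2 FPKM ratio of Nanos2 TAG/TAG over Nanos2 TAG/+ for each gene with an FPKM (points) in the glycolytic enzymes and in each other list; black bars are list medians, dashed lines mark 1.5-fold, and blue and red points are genes called lower and higher. The glycolytic enzymes have 4 points past the left line and 1 past the right, and the HIF-1 and hypoxia-response genes have 7 and 2.

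Cell composition was checked with the marker lists. Of 8 fibroblast markers with an FPKM, 4 were higher in Nanos2 TAG/TAG, against 22.8% of all genes, and none was lower: Pdgfrb had 0.660 and 6.75, Dcn 4.44 and 10.2, Thy1 15.7 and 35.2 and Col1a1 25 and 43.9. Thy1 is not particular to fibroblasts and is also found on spermatogonia, so its level cannot be assigned to feeder cells. Fn1, the most abundant of the list, had 254 and 280. None of these 8 was at 0 in either library, and the other 2 of the list, Lum and Acta2, were not listed with an FPKM. Of 9 spermatogonial markers 3 were higher, which is 33.3% against the same 22.8%, namely the GDNF receptor genes Gfra1 (56.2 and 111.0) and Ret (73.2 and 180.7) and the GDNF-induced factor Etv5 (46.0 and 178), and none was lower. Of the 50-base stretches of Etv5, 57.3% were found nowhere else, so its value depends in part on read assignment. Ddx4 had 31 and 41.4, Zbtb16 106.8 and 101.7, Sall4 213.8 and 191.7 and Lin28a 116.9 and 96.5. Of 5 markers of differentiating spermatogonia, 1 was lower, which is 20% against 19.4% of all genes. It was Sohlh1, with 16.9 and 10.4, while Kit had 38.5 and 30.7 and Sohlh2 had 173 and 125. Nanos2 had 27.5 and 23.8. In bulk RNA, fewer cells of a type and less RNA per cell cannot be told apart, and the part of cell composition in the levels of the glycolytic enzymes was not tested.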

How the data were processed

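RNA-seq values of 2 libraries and SLAM-seq half-lives of 2 lines were used. The FPKM values were deposited by the authors in 1 table, whose columns GG and Gp were read as Nanos2 TAG/TAG and Nanos2 TAG/+ from their names and the order of genotypes in the file's name, since no header or label spells these codes out. GEO's processing notes name kallisto and DESeq2 for these libraries without versions, and the build is not given in the sources used here. FPKM times the mean length of all GENCODE M21 transcripts of a symbol was a whole number of reads, within 0.05, for 100.0% of 13884 genes. The half-lives, a score in minutes per transcript, came from SlamDunk conversion rates to which the authors fitted a first-order decay, and were deposited without an error or a depth. The 4 CRAC libraries were not analysed here.

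Ratios were taken on log2(FPKM + 0.1) over all genes and were called at 1.5-fold, without tests, since each line had 1 library. Intervals were exact Poisson intervals for a level and Clopper-Pearson intervals for a ratio, both at 95%. Percentiles, medians and shares of all genes were taken over the whole tables. Copies were exact matches of 50-base stretches, taken every 10 bases, and a gene counted as a copy with at least 5 of them. Each gene was represented by 1 coding transcript, preferably APPRIS principal, and 3′ UTRs of 0.8 to 1.25 times the length of a member's were its comparison. Read recovery was tested on simulated data.

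All 10 members are described. From each other list, genes with an FPKM of at least 10 in both libraries or past 1.5-fold with at least 50 reads are named with their values, as are all germ cell isozymes. Slc2a4 and the pseudogenes were named outside this rule. The members and lists were chosen with earlier results of these data known. Alternatives were other pseudocounts, centring on the median ratio, a limit of FPKM 1, a call at 2-fold, half-lives up to 1440 min, and single libraries or lines. Analyses used Python 3.11.15, numpy 2.4.6, pandas 2.3.3, scipy 1.17.1 and matplotlib 3.10.9.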

Additional observations from a re-analysis of the deposited data

How the results depend on the processing

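The 4 members called lower and the 1 called higher were the same genes with a pseudocount of 1, without a pseudocount, centred on the median ratio, at a call of 2-fold and, chosen after seeing the data, with the reads of pseudogene copies added. At a call of 2-fold, 9.59% of all genes were lower and 13.5% higher, and 6.72% of transcripts had half-lives 2-fold apart. Of 36 recomputed member ratios, 34 stayed within the counting interval of the ratio, and the exceptions were Gpi1 (-0.50) and Gapdh (-0.30) with pseudogene copies added. Centring shifted ratios by 0.02 and turned that of Gapdh, which is near 0, to the other side. Centred half-life ratios shifted by 0.04, to -0.19 for Gpi1, -0.10 for Aldoa, -0.07 for Pkm and 0.10 for Pgam1, with the same directions. Among genes with an FPKM of at least 1 in both libraries 16.9% were lower and 17.4% higher, and among genes with at least 50 reads, also chosen after seeing the data, 17.2% and 20.1%. The number of members in the top 10% of FPKM was 5 or 6, and that of members with a half-life above the median was 4, under each alternative run. No library could be left out, since each line had 1, and the spread between cultures of a line is therefore unknown. No paired analysis was possible because the comparisons rest on 1 library and 1 fitted half-life per line.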

Other observations

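Downstream of glycolysis, the genes that pass pyruvate into mitochondria were mostly within the limit, as were 8038 of all 13904 genes. Of 12 with an FPKM, 11 were within 1.5-fold, among them the pyruvate dehydrogenase subunits Pdha1 (27.8 in Nanos2 TAG/+ and 26.5 in Nanos2 TAG/TAG) and Pdhb (70.7 and 48.5) and its inhibitory kinases Pdk1 (47.6 and 36.5), Pdk2 (40.5 and 57.1) and Pdk3 (114 and 101). The other subunits Dlat (73.7 and 66.3) and Pdhx (24.8 and 17.8), the pyruvate carrier subunit Mpc2 (22.5 and 25.4) and the phosphatase Pdp2 (14.6 and 11.6) were among them too. Pdp1, a phosphatase that activates the complex, was higher, with 10.3 and 16.1. Of 11 genes of this list with a half-life, 7 were above the median of all transcripts in both lines, against 39.8% of all transcripts.

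Of 15 tricarboxylic acid cycle genes with an FPKM, 5 were lower in Nanos2 TAG/TAG and none was higher, that is 33.3% lower against 19.4% of all genes. These were Idh3a (23.4 and 11.4) and Idh3b (50.7 and 23.6), subunits of the NAD-dependent isocitrate dehydrogenase, Suclg1 (50.4 and 31.1) and Sucla2 (8.64 and 4.36), subunits of succinyl-CoA ligase, and Sdhd (38.4 and 22.4), a subunit of succinate dehydrogenase. The most abundant gene of the list, the malate dehydrogenase Mdh2, had 1135 and 1405. The others named by the rule were within the limit, namely Cs (156 and 173), Idh3g (152.1 and 141.4), Ogdh (146.3 and 139.3), Dlst (217 and 225), Suclg2 (28.6 and 21.8), Sdha (100.9 and 82.9), Sdhb (39.98 and 30.5), Sdhc (105.9 and 96.6) and Fh1 (64.6 and 49.1). Of 7 half-lives in this list, 1 was at least 1.5-fold shorter in Nanos2 TAG/TAG, that of Idh3b (383 and 195 min), and 1 was at least 1.5-fold longer, that of Dlst (202 and 325 min). Over all 5806 transcripts, 621 were at least 1.5-fold shorter and 583 at least 1.5-fold longer, together 20.7%.

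In the pentose phosphate pathway, which branches off at glucose 6-phosphate, 1 of 7 genes was lower, Rpia (31.0 and 18.8), and 1 was higher, Pgls (36.9 and 58.8). That is 14.3% each way against 19.4% lower and 22.8% higher over all genes, so neither share exceeded that of all genes. G6pdx, the first enzyme of the branch, had 63.5 and 76.1, Pgd had 107.5 and 132.9, Tkt had 74.3 and 65, and Taldo1 had 124.4 and 140.9.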
